A study of Mus musculus with 2 samples.

Results

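Cluster 13 is a group of 245 cells among 7613 leukocytes sorted from mouse aorta, which the authors' clustering set apart and their cell type call named T cells. Its members are all cells with that cluster number in the deposited cell table, 179 of 4871 cells in the nt-LNA library and 66 of 2742 cells in the saline library. All mice were Apoe-/-, lacking apolipoprotein E and so prone to atherosclerosis, and ate a western diet for 4 weeks. They were given nt-LNA at 30 mg/kg each week, or saline, and the series concerns the effect of nt-LNA on the make-up and state of lesion cells. The labels do not spell out nt-LNA. Live cells of the aortic arch and thoracic aorta were sorted as CD45+/CD3-, that is, with the leukocyte protein CD45 and without CD3, which accompanies the antigen receptor at the T cell surface. The sample titles speak of macrophages, whereas the sort was for CD45+/CD3- cells. There was 1 library per treatment, and the labels state no strain, age, sex or number of mice.

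T cells arise in the thymus from blood-borne progenitors. Signals through Notch receptors commit the progenitors to the T lineage. The recombinase encoded by Rag1 and Rag2 then assembles receptor genes from gene segments, while Dntt, a template-independent DNA polymerase, adds bases at the joints. Cells that assemble a beta chain pair it with the invariant pre-T alpha chain, encoded by Ptcra, before they express CD4 and CD8 and rearrange the alpha locus. Cells that assemble gamma and delta chains become gamma delta T cells. Thymocytes without CD4 and CD8 that carry CD25 (Il2ra) and little CD44 are known for rearrangement of the beta, gamma and delta loci.

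Expression is given in CPM (counts per 1000000), the unique molecular identifiers (UMIs, counted transcript molecules) of a gene relative to all UMIs of the cluster. The deposited counts pool both libraries within each cluster, so treatments can be compared by cell numbers alone, and transcripts cannot be placed in the same or in different cells. Cluster 13 held 2178322 UMIs, a mean of 8891 per cell, against means of 1278 to 24869 in the other 19 clusters. Mitochondrial genes took 4.29% of its UMIs and ribosomal protein genes 28.9%, against medians of 3.53% and 21.1% over the other clusters. Ribosomal protein genes took between 9.82% and 30.5% in the T cells clusters 5, 9, 11 and 14. The part of these differences in the gene comparisons was not tested beyond the change of scaling reported with the processing. The libraries shared 2 barcodes, of which 0 belonged to cluster 13. Intervals in brackets are exact 95% intervals and cover counting error only. With 1 library per treatment, and with clusters built from the same expression values, no test was made, and in counts of genes "higher" and "lower" mean by over 2-fold on CPM + 0.5.

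The 3 genes that mark the group were all present. Tcrg-C2, a constant gene of the gamma receptor chain, reached 496 CPM (467 to 527) in cluster 13, and the next highest cluster, 6, had 43.2 CPM. Ptcra reached 234 CPM (214 to 255) in cluster 13, and cluster 14 came next with 175 CPM. Dntt reached 1172 CPM (1127 to 1218) in cluster 13, second of 20 after the 1203 CPM of cluster 9. The authors' deposited score for the cell type call was 48.6 for cluster 13, the lowest of 20, with the other clusters between 53.2 and 93.6 on a scale that the sources used here leave unstated. On these 3 markers the cluster is called early T lineage-like.

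Tcrg-C1 and Tcrg-C2 are near copies, while Tcrg-C4 is less alike, and their sequences are shown for that difference. The first 150 bases of the first coding exon are given for the 3 genes with most counts, from the GENCODE M21 annotation of GRCm38 (Tcrg-C2, chr13:19307402-19307551, minus strand; Tcrg-C1, chr13:19214103-19214252, plus strand; Tcrg-C4, chr13:19344558-19344707, plus strand). Capitals in Tcrg-C2 mark bases that differ from Tcrg-C1, and capitals in Tcrg-C1 and Tcrg-C4 mark bases that differ from Tcrg-C2.
Tcrg-C2: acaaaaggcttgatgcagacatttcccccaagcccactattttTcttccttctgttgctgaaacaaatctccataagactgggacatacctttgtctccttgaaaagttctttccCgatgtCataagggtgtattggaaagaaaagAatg
Tcrg-C1: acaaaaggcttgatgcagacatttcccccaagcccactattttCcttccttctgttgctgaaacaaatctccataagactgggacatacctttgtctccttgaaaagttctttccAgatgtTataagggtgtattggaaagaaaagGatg
Tcrg-C4: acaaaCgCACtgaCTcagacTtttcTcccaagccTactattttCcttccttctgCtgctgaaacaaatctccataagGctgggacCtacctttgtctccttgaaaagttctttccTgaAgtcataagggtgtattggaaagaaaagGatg
Over the 330 bases of that exon Tcrg-C1 and Tcrg-C2 differed at 9 positions (97.3% identity), and Tcrg-C4 was 81.5% identical to Tcrg-C2. The longest run shared exactly by the transcripts was 104 bases for Tcrg-C1 with Tcrg-C2 and 29 bases for Tcrg-C4 with Tcrg-C2. For Tcrg-C3, whose sequence is not shown, it was 122 bases with Tcrg-C1 and 95 bases with Tcrg-C2. No stretch of 150 bases, the read length in the labels, was shared by any pair of the gamma constant transcripts. The exon shown lies at the 5′ end of the constant region, and where the reads of this 3' library fell in it is not known from the counts. Shorter aligned stretches could still be split among Tcrg-C1, Tcrg-C2 and Tcrg-C3, so the division of counts among these genes is uncertain.

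The gamma receptor locus had its highest level in cluster 13. Tcrg-C2 reached 496 CPM in cluster 13, against 3.798, 2.404, 2.27 and 33.4 CPM in clusters 5, 9, 11 and 14. Tcrg-C1 reached 519 CPM (489 to 550) in cluster 13, against 1.27, 3.21, 126 and 24.4 CPM in the same clusters. Tcrg-C4 reached 270 CPM (249 to 293) in cluster 13, against 2.53, 3.21, 132 and 10.3 CPM. For none of these 3 genes did the interval of cluster 13 overlap that of clusters 5, 9, 11 or 14. The share of all genes without such overlap was not counted, and Tcrg-C2 is itself a gene that marks the group. The transcripts amounted to 4.61 UMIs per cell of cluster 13 for Tcrg-C1, 4.41 for Tcrg-C2 and 2.4 for Tcrg-C4. Cluster 13 held 61.2% of all Tcrg-C2 UMIs of the series (58.9 to 63.5) with 3.22% of its cells, and cluster 6, deposited as Macrophages, held 26.1%. Tcrg-C2 was 38.5% of gamma constant UMIs in cluster 13 (36.7 to 40.4), against 0.874% in cluster 11 (0.284 to 2.03) and 40.1% in cluster 6 (37.2 to 43.0). Tcrg-C3 had 7 UMIs in cluster 13, or 3.21 CPM (1.29 to 6.62), and 0 in clusters 5, 9, 11 and 14. The intervals for 0 UMIs reached 4.67 CPM in cluster 5 and 4.735 CPM in cluster 14, so no fold is given.

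Among gamma variable segments, Trgv2 gave 369 of the 426 UMIs in cluster 13, or 86.6% (83.0 to 89.7). Trgv2 reached 169 CPM (153 to 188) in cluster 13, against 2.53, 0.801, 4.08 and 57.8 CPM in clusters 5, 9, 11 and 14. Tcrg-V4 had 35 UMIs and Tcrg-V1 had 19 in cluster 13. All gamma variable segments together came to 196 CPM (177 to 215) in cluster 13, against 5.06, 1.603, 9.98 and 64.2 CPM. Reads of a 3' library fall mostly in the constant end of a receptor transcript, so low variable counts say little of which chains were made.

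The alpha beta loci did not follow the gamma locus, and the delta locus did so only in part. The delta constant gene Trdc reached 254 CPM (234 to 276) in cluster 13, second of 20 clusters. It stood at 58.2, 53.7, 4.08 and 395 CPM in clusters 5, 9, 11 and 14, so it was higher in cluster 14, with intervals that did not overlap. Delta variable segments, taken as symbols starting Trdv, summed to 2.75 CPM (1.01 to 5.995) in cluster 13, below the 46.8, 20.8, 58.5 and 74.4 CPM of those clusters. The alpha constant gene Trac had 9 UMIs, or 4.13 CPM (1.89 to 7.84), in cluster 13, the lowest of the 20 clusters, against 581, 530, 19.5 and 118 CPM. Alpha variable segments summed to 11.02 CPM (7.06 to 16.4) in cluster 13, against 172, 127, 5.44 and 62.9 CPM. The beta constant genes were transcribed. Trbc1 reached 1534 CPM (1483 to 1587) in cluster 13, against 3316, 3551, 302 and 3167 CPM, and Trbc2 1807 CPM (1751 to 1865), against 3350, 6305, 704 and 3684 CPM. Cluster 13 thus lay between cluster 11 and clusters 5, 9 and 14 for both beta constant genes. Beta variable segments summed to 24.3 CPM (18.2 to 31.8) in cluster 13, against 91.2, 84.1, 2.72 and 89.9 CPM, with Trbv12-2 giving 25 of 53 UMIs.

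**Figure D1:**
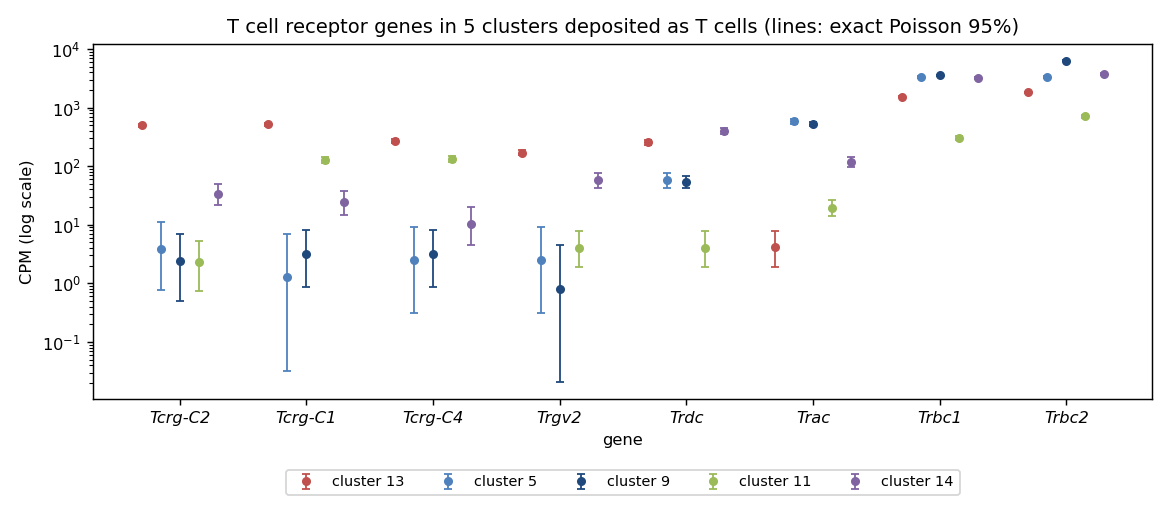
CPM (log scale) of 8 T cell receptor genes in cluster 13 and in clusters 5, 9, 11 and 14, with exact Poisson 95% intervals as lines. The gamma genes Tcrg-C2, Tcrg-C1, Tcrg-C4 and Trgv2 were highest in cluster 13, Trdc was highest in cluster 14, and Trac was lowest in cluster 13 at 4.13 CPM.

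The remaining receptor machinery was read against a background in which cluster 13 was over 2-fold higher for 757 of 10627 genes (7.12%) and over 2-fold lower for 1953 (18.4%), relative to the mean of clusters 5, 9, 11 and 14. With mitochondrial and ribosomal protein genes left out of the totals, the counts were 1103 higher and 1569 lower. Of 19 genes of the CD3 chains and proximal signalling, 0 were higher and 10 lower, with a median log2 ratio of -1.25 against -0.21 over all genes. Cd3g, the gamma chain of CD3, stood at 2672 CPM in cluster 13, against 1819, 1109, 144 and 2924 CPM in clusters 5, 9, 11 and 14. Cd3d stood at 1112 CPM, against 1856, 1313, 43.1 and 1828 CPM, and Cd3e at 684 CPM, against 1331, 817, 22.2 and 1100 CPM. The sort removed cells with surface CD3 protein, whereas these values are RNA. Lck, the kinase that starts receptor signalling, had 627 CPM in cluster 13 and 746 CPM on average in those clusters. Lower genes included Cd5, an inhibitory surface receptor (7.35 against 103 CPM), the costimulatory receptor gene Cd28 (75.3 against 509 CPM) and Themis, needed for selection of thymocytes (141 against 436 CPM). Set against single clusters, cluster 13 was higher for 15.6% and lower for 21.4% of all genes with at least 20 counts relative to cluster 5, for 12.5% and 11.6% relative to cluster 9, for 22.5% and 12% relative to cluster 11, and for 14.2% and 22.1% relative to cluster 14. Of the CD3 and signalling genes, 0 of 19 were higher and 13 lower relative to cluster 5, 1 of 19 and 11 relative to cluster 9, 9 of 18 and 4 relative to cluster 11, and 0 of 19 and 9 relative to cluster 14. The shares over all genes given here are also the background of the list counts below.

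Genes of the pre-T cell receptor and of recombination were split. Of 15, 3 were higher and 3 lower than the mean of clusters 5, 9, 11 and 14 (7.12% and 18.4% of all genes). Ptcra and Dntt, among the 3 higher, are themselves genes that mark the group, so that count was in part fixed in advance. Ptcra stood at 234 CPM in cluster 13, against 20.3, 36.9, 0.453 and 175 CPM. Dntt stood at 1172 CPM, against 401, 1203, 22.7 and 291 CPM. The third higher gene was Xrcc5, for a subunit of the Ku end-joining complex (27.1 against a mean of 12.5 CPM). Rag1 was lower, at 233 CPM (213 to 254) in cluster 13, against 1123, 1657, 14.96 and 339 CPM. Rag2 stood at 16.1 CPM, against 20.3, 36.9, 0.907 and 16.7 CPM. The other lower genes were Dclre1c, for the hairpin-opening nuclease Artemis (63.4 against 130 CPM), and the polymerase gene Polm, with 2 UMIs, a ratio of 0.0871 (0.0105 to 0.314) to the mean.

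Markers of thymocyte stage showed CD25 transcripts with few of the coreceptors. Il2ra stood at 437 CPM (410 to 466) in cluster 13, against 8.86, 2.404, 382 and 47.5 CPM in clusters 5, 9, 11 and 14. Its highest level was 805 CPM in cluster 16, also deposited as T cells. Cd44 stood at 14.7 CPM in cluster 13, the lowest of the 20 clusters, against 49.4, 17.6, 151 and 35.9 CPM. Cd4 had 8 UMIs (3.67 CPM) in cluster 13, against 839, 465, 6.801 and 345 CPM. Cd8a stood at 11.9 CPM, against 1508, 1195, 23.1 and 1512 CPM, and Cd8b1 at 29.4 CPM, against 3355, 2332, 19.04 and 2716 CPM. Cd8b1 stood at 65.6 CPM in the NK cells cluster 3, which should lack it, and the part of free RNA in the level of cluster 13 was not tested.

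Relative to the mean of clusters 5, 9, 11 and 14, 7.12% of all genes were higher and 18.4% lower. Of the 18 stage genes, 3 were higher and 10 lower. The 3 were Il2ra, Cd24a, for a surface glycoprotein of immature lymphocytes (695 against 321 CPM), and Cpa3, for a carboxypeptidase known from mast cells (145 CPM, against 2.53, 0.801, 6.801 and 17.97 CPM). Arpp21, transcribed in thymocytes, lay close to the mean (611 against 600 CPM). Among the lower genes, Thy1 stood at 377 against 1153 CPM, Cd27 at 273 against 586 CPM, and the thymus-homing receptor gene Ccr9 at 157 against 829 CPM.

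Genes of earlier, multipotent progenitors ranged from 0 UMIs to 85.4 CPM in cluster 13. Of 18 such genes, 5 had 0 UMIs in cluster 13 (Meis1, Hoxa9, Tal1, Gata2 and Mpo). Against the mean of all other clusters, where 1310 of 14202 genes (9.22%) were higher and 3276 (23.1%) lower in cluster 13, 2 of the 18 were higher and 12 lower. Relative to cluster 9 alone, 5 of the 8 with at least 20 counts were higher and 1 lower, and relative to cluster 5, 4 of 8 and 1. The counts were 2 and 2 of 8 relative to cluster 11, 1 and 2 of 9 relative to cluster 14, and 2 and 5 of 12 relative to the mean of these clusters. Ly6a, a surface protein gene also found on mature lymphocytes, stood at 85.4 CPM in cluster 13, against 37.98, 22.4, 810 and 79.6 CPM in clusters 5, 9, 11 and 14. Mef2c, a transcription factor gene of lymphoid progenitors, stood at 53.3 CPM, against 34.2, 36.1, 28.6 and 35.9 CPM. Kit, the stem cell factor receptor gene, stood at 23.4 CPM in cluster 13, against 3.798, 0.801, 164 and 16.7 CPM in clusters 5, 9, 11 and 14. Spi1, a myeloid and early progenitor transcription factor gene, stood at 10.1 CPM, and Flt3 and Cd34 had 4 and 6 UMIs. Higher than the mean of all other clusters were Nfe2 (12.4 against a mean of 5.63 CPM) and Erg (8 UMIs, 3.67 against 0.166 CPM).

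**Figure D2:**
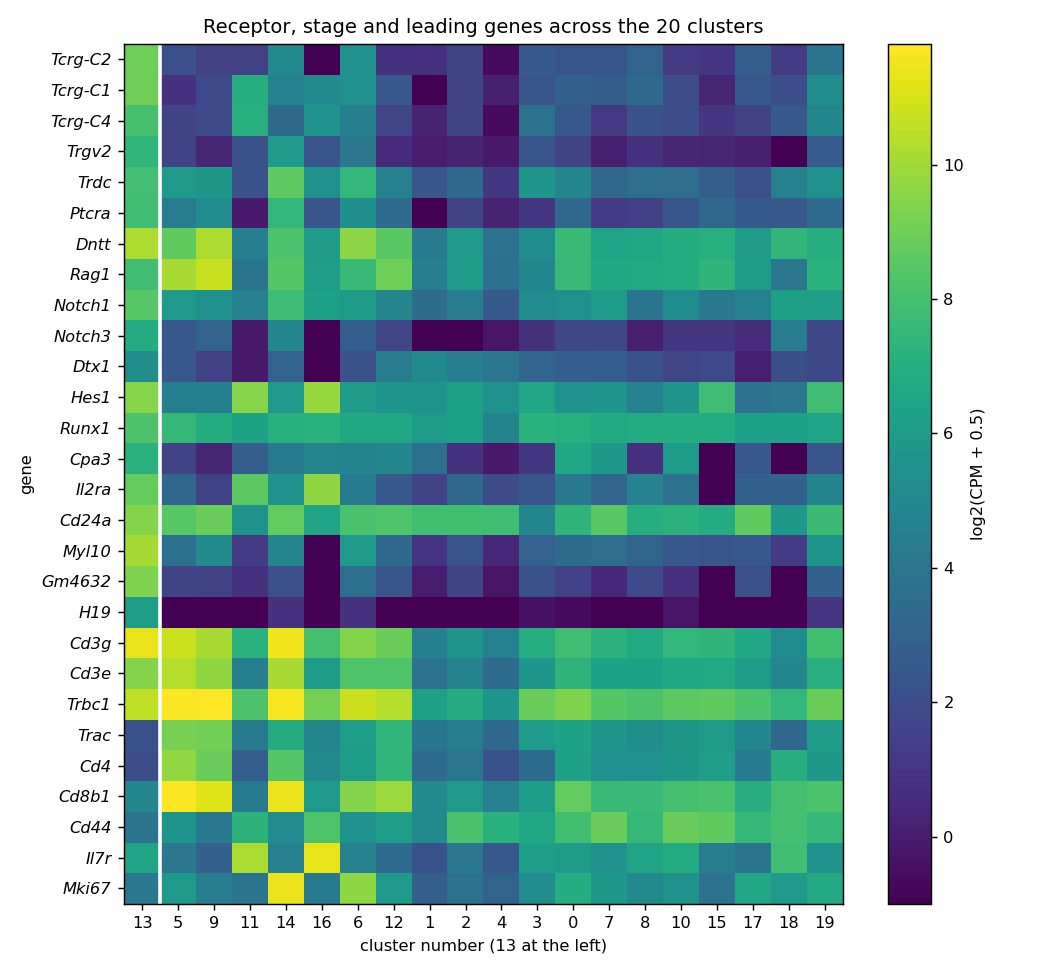
log2(CPM + 0.5) of receptor, stage and leading genes in rows, with cluster 13 as the left column and the other 19 clusters after it. Tcrg-C2, Ptcra, Notch1, Notch3 and Cd24a were highest in cluster 13, and Trac, Cd4 and Cd44 were lowest in cluster 13.

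Notch receptors and Notch targets stood high in cluster 13. Notch3 reached 116 CPM (102 to 131) in cluster 13, against 5.06, 8.01, 0.453 and 28.2 CPM in clusters 5, 9, 11 and 14. Notch1, the receptor that commits progenitors to the T lineage, reached 357 CPM (332 to 383), against 59.5, 41.7, 23.1 and 227 CPM. Dtx1, a Notch target for a ubiquitin ligase, reached 39.5 CPM (31.6 to 48.8), against 5.06, 2.404, 0.453 and 7.702 CPM. Hes1, a repressor induced by Notch, reached 709 CPM (674 to 745), against 22.8, 22.4, 697 and 57.8 CPM. Notch1, Notch3 and Dtx1 were highest in cluster 13 of all 20 clusters, whereas Hes1 reached 889 CPM in cluster 16. Nrarp, another target, had 8.26 CPM in cluster 13 and 4.85 CPM on average in clusters 5, 9, 11 and 14.

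T lineage transcription factor genes varied more. Relative to the mean of clusters 5, 9, 11 and 14, 7.12% of all genes were higher and 18.4% lower. Of 25 measured genes of the Notch and transcription factor list, 5 were higher and 9 lower. Besides the 4 Notch genes the higher one was Runx1 (293 against 131 CPM). Bcl11b, required for T commitment, stood at 707 CPM, against 895, 912, 183 and 725 CPM, and Tcf7, a Wnt pathway factor needed early in the lineage, at 617 CPM, against 801, 1635, 46.7 and 850 CPM. Lower genes included the chromatin organizer gene Satb1 (310 CPM, against 2754, 2212, 216 and 1248 CPM) and Id3, an inhibitor of E proteins that is induced by receptor signalling (13.8 CPM, against 94.96, 182, 8.62 and 70.6 CPM). Gata3 stood at 73.9 CPM, against 53.2, 83.3, 488 and 29.5 CPM, and Id2 at 50.04 CPM, against 53.2, 48.1, 996 and 24.4 CPM, so for both the mean was raised by cluster 11.

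Genes of gamma delta differentiation were split. Of 14 measured, 4 were higher and 7 lower than the mean of clusters 5, 9, 11 and 14 (7.12% and 18.4% of all genes). The 4 were Cd163l1, 5830411N06Rik (41.3 against 4.59 CPM), Ifng (23 UMIs, 10.6 against 1.41 CPM) and Blk (19.3 against 7.76 CPM). Sox13, a transcription factor gene of early gamma delta cells, had 12 UMIs, or 5.51 CPM (2.85 to 9.62), in cluster 13, against a mean of 0.2503 CPM in the other 19 clusters. Cd163l1, a scavenger receptor gene of gamma delta T cells, reached 17.9 CPM in cluster 13, the highest of 20, with cluster 14 next at 8.99 CPM. Il17a, Il23r, Tbx21 and Ccr10, of mature gamma delta subsets, had 0 UMIs in cluster 13, for which the interval reaches 1.69 CPM. Il23r had only 6 UMIs in the whole series, and Tbx21 had 2 over clusters 5, 9, 11 and 14, so these zeros say little. Maf, a factor of cells that make IL-17, stood at 19.3 CPM, against 35.5, 12.8, 104 and 15.4 CPM.

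Effector genes of mature lymphocytes summed to 764 CPM in cluster 13, of which Gzma, for a granzyme, gave 363 CPM and Nkg7 207 CPM. Il4, Il5, Il17a, Il17f, Il22 and Gzmc had 0 UMIs in cluster 13, and Prf1 and Il13 had 1 each. Of 19 measured effector genes, 0 were higher and 16 lower than the mean of all other clusters. Over all genes the shares were 9.22% and 23.1%, and 7.12% and 18.4% relative to the mean of clusters 5, 9, 11 and 14. The mean of all other clusters was raised by the NK cells cluster 3, where the effector genes summed to 44946 CPM. Cluster 13 ranked 13 of 20 clusters by this sum. By single genes it ranked 2 for Nkg7 and Ifng, 5 for Gzma and 20 for Ccl3. Relative to clusters 5, 9, 11 and 14, 4 of 16 were higher (Ifng, Gzmb, Nkg7 and Ccl4) and 10 lower, with a median of -1.84 that turned to 1.28 when cluster 11 was left out of the mean, a setting chosen after seeing the data. Relative to single clusters, 4 of 8 were higher and 1 lower for cluster 5, 6 of 8 and 0 for cluster 9, 5 of 15 and 10 for cluster 11, and 4 of 6 and 2 for cluster 14. Nkg7, for a granule membrane protein, stood at 207 CPM (188 to 227) in cluster 13, against 22.8, 5.61, 69.4 and 41.1 CPM. As shares of their levels in the NK cells cluster 3, Nkg7, Gzma, Ccl4, Ccl5 and Prf1 stood in cluster 13 at 5.601%, 2.79%, 2.15%, 0.114% and 0.03701%, against 0.152%, 1.29%, 0.426%, 0.208% and 0.323% in cluster 9. The part of free RNA in these levels was not tested.

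Counts of cytokine receptor and trafficking genes differed with the cluster they were set against. Relative to the mean of clusters 5, 9, 11 and 14, 7.12% of all genes were higher and 18.4% lower. Of 23 measured cytokine receptor genes, 3 were higher and 12 lower. The higher ones were Il2ra, Il17rb (54.6 against 21.7 CPM) and Il12rb2 (13.3 against 6.29 CPM). Il2rb, a receptor chain for IL-2 and IL-15, had 0 UMIs in cluster 13, a ratio of 0 (0 to 0.0822) to the mean of 20.6 CPM. Il7r, the receptor gene for a survival cytokine of early lymphocytes, stood at 87.7 CPM, against 16.5, 7.21, 1158 and 23.1 CPM, above clusters 5, 9 and 14 and below cluster 11. Relative to cluster 11 alone, 3 of 21 receptor genes were higher and 13 lower, while the counts were 5 and 5 of 16 relative to cluster 5, 5 and 3 of 16 relative to cluster 9, and 3 and 3 of 17 relative to cluster 14. Of 23 trafficking genes, 1 was higher and 12 were lower than the mean of the 4 clusters. Relative to the single clusters 5, 9, 11 and 14, 6 of 16, 4 of 16, 9 of 18 and 5 of 17 trafficking genes were lower. Lower than the mean was the chemokine receptor gene Ccr2 (7.35 CPM, against 43.05, 15.2, 735 and 12.8 CPM).

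Growth genes and cell cycle genes gave different counts. Relative to the mean of clusters 5, 9, 11 and 14, 7.12% of all genes were higher and 18.4% lower. Of 22 genes of growth and ribosome biogenesis, 8 were higher, 14 within 2-fold and 0 lower, with a median log2 ratio of 0.91. Relative to the single clusters 5, 9, 11 and 14, 13, 16, 11 and 7 of the 22 growth genes were higher. Lower were 0, 0, 1 and 3 of them. Npm1, for nucleophosmin, stood at 1782 CPM in cluster 13, against 442, 806, 1049 and 643 CPM. The chaperone gene Hspe1 stood at 521 against 219 CPM, and Myc at 40.4 against 15.7 CPM. Of 22 cell cycle genes, 0 were higher and 15 lower, with a median of -2.07, but that mean was raised by cluster 14. Mki67, a marker of cycling cells, stood at 16.99 CPM in cluster 13, against 59.5, 20.8, 14.5 and 2758 CPM. Relative to cluster 14 alone, 0 of 22 cell cycle genes were higher and 20 lower (14.2% and 22.1% of all genes). The counts were 4 higher and 5 lower of 17 relative to cluster 5 (15.6% and 21.4% of all genes), 5 and 1 of 16 relative to cluster 9 (12.5% and 11.6%), and 7 and 1 of 17 relative to cluster 11 (22.5% and 12%). With clusters 9 and 11 as the mean, the median turned to 0.69. The replication licensing genes Mcm2 and Mcm6 stood at 61.97 and 111 CPM in cluster 13, against means of 36.6 and 62.4 CPM. Cdk6, for a kinase of the G1 phase, stood at 1038 CPM (995 to 1081), against 78.5, 56.9, 73.5 and 276 CPM.

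Survival, glycolysis and antigen presentation genes had medians of -0.02, -0.02 and -0.45 relative to clusters 5, 9, 11 and 14. Of 18 survival genes 1 was higher, Trp53 (143 against 63.5 CPM), and 6 were lower, among them the death receptor gene Fas, with 6 UMIs (2.75 against 90.6 CPM). Of 15 glycolysis genes 1 was higher and 3 lower, and of 17 presentation genes 1 was higher (Psmb8, an immunoproteasome subunit, 705 against 343 CPM) and 3 lower. Both lists lay near the background of 7.12% higher and 18.4% lower over all genes. Against the mean of all other clusters, 1 of 19 measured type I interferon genes was higher and 7 lower, with a median of -0.77. Relative to the single clusters 5, 9, 11 and 14, 7 of 15, 8 of 16, 3 of 15 and 8 of 15 were higher. Relative to the mean of clusters 5, 9, 11 and 14, 6 of 17 were higher and 2 lower, with a median of 0.69. Isg15, an interferon-induced ubiquitin-like protein gene, stood at 163 CPM in cluster 13, against 18.99, 41.7, 85.2 and 14.1 CPM. Of 16 immediate early and stress genes, 0 were higher and 6 lower, with the RNA-decay factor gene Zfp36 at 34.9 CPM, against 147, 93.8, 1237 and 79.6 CPM.

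**Figure D3:**
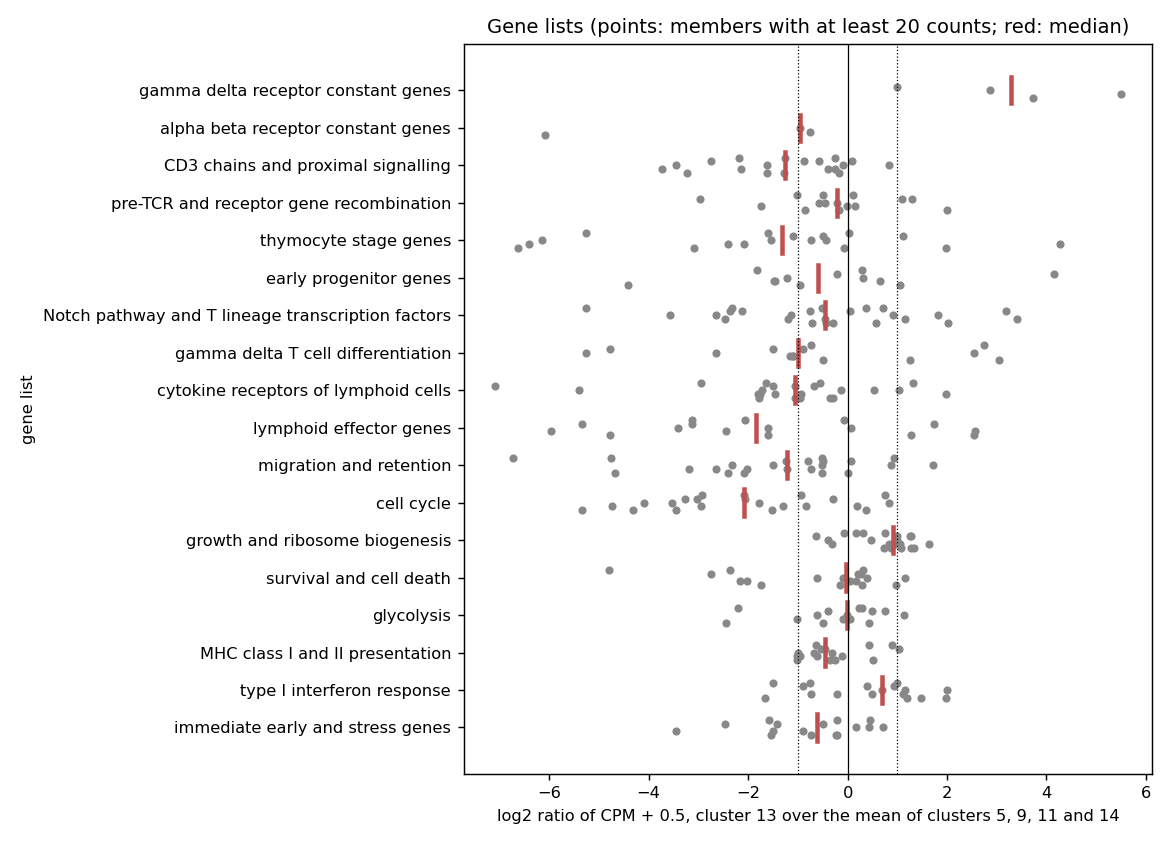
log2 ratio of CPM + 0.5 in cluster 13 over the mean of clusters 5, 9, 11 and 14, for members of 18 gene lists with at least 20 counts (points) and their median (red). Gamma delta receptor constant genes and growth genes had the highest medians, 3.29 and 0.91, and cell cycle genes the lowest, -2.07.

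The 25 genes with the largest ratio to the other clusters were each highest in cluster 13 of all 20 clusters, by 1.88 to 53.6 times the next cluster. They were chosen by that ratio, so their values are descriptions. Besides 4 gamma receptor genes and Notch3 they included H19, an imprinted long noncoding RNA, with 151 UMIs in cluster 13, or 69.3 CPM (58.7 to 81.3), against 0, 0, 0 and 1.28 CPM in clusters 5, 9, 11 and 14. Gm4632 reached 628 CPM (595 to 662), against 2.53, 2.404, 1.36 and 3.85 CPM. Myl10, a myosin regulatory light chain gene, reached 1087 CPM (1044 to 1132), against 12.7, 33.7, 1.81 and 28.2 CPM. Gm5111 had 116 UMIs in cluster 13 and 0 in those 4 clusters, which is 89.1 times a floor of 3 counts over them. Tmem121, a membrane protein gene, reached 210 CPM, against 2.53, 3.21, 0.453 and 26.95 CPM. Scin, for an actin-severing protein, reached 72.1 CPM, against 2.53, 0.801, 0.453 and 7.702 CPM. Itgb4, for integrin beta 4, reached 33.5 CPM, against 0, 2.404, 0 and 1.28 CPM, and Pdgfrb, a growth factor receptor gene, 33.1 CPM, against 0, 1.603, 0 and 10.3 CPM. The next highest cluster was 14 for 10 of the 25 genes and 6 for another 6.

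Against clusters 5, 9, 11 and 14 alone, the 15 leading genes also included the interferon-inducible Ifi44 (49.1 against 1.38 CPM) and Rab44 (52.8 against 1.92 CPM). The 15 genes with the smallest ratio all had 0 UMIs in cluster 13, and ties were broken by the higher mean elsewhere. The first was the chemokine gene Ccl1, at 312 CPM in cluster 11, with a ratio of 0 (0 to 0.0214) to the mean of the 4 clusters. Neil3, a DNA glycosylase gene of dividing cells, had a ratio of 0 (0 to 0.042) and reached 158 CPM in cluster 14. At the 2-fold limit itself, Tspan4 lay just above (2.0013-fold) and Mrpl11 just below (1.9994-fold).

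**Figure D4:**
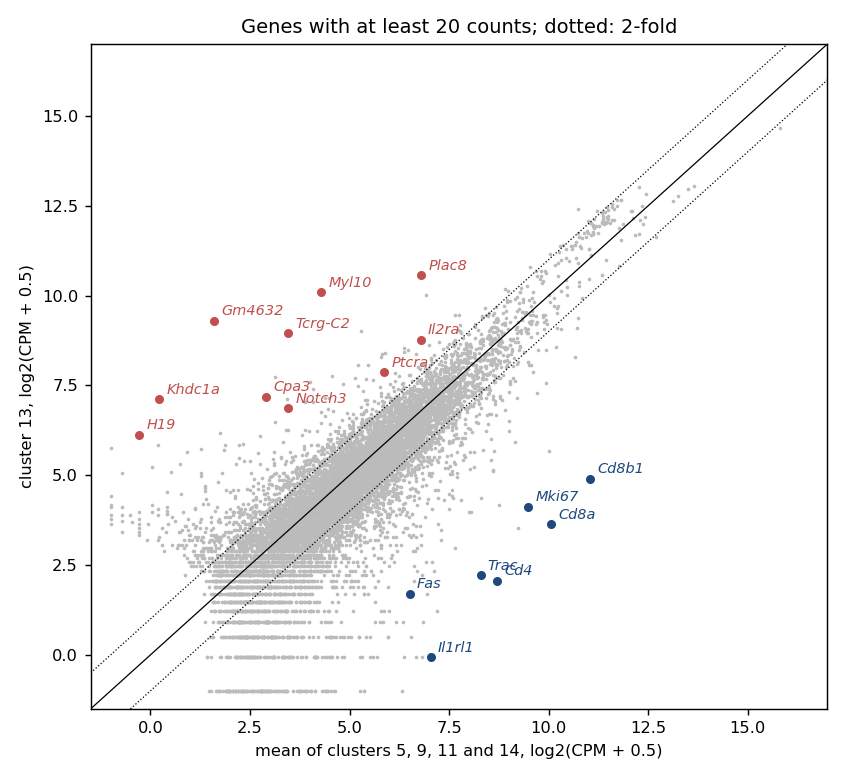
log2(CPM + 0.5) of 10627 genes in cluster 13 (vertical) against the mean of clusters 5, 9, 11 and 14 (horizontal), with dotted lines at 2-fold. Red genes such as Tcrg-C2 (496 against 10.5 CPM) lay above the lines, and blue genes such as Trac (4.13 against 312 CPM) below.

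Over all genes with at least 20 counts, the profile of cluster 13 was most like that of cluster 6, with Pearson r = 0.912 and Spearman rho = 0.911 across 14202 genes. Cluster 6, though deposited as Macrophages, held T lineage RNA, with Trbc2 at 2917 CPM and Dntt at 761 CPM. The macrophage gene Lyz2 stood at 689 CPM in cluster 6, against 395, 342, 112 and 189 CPM in clusters 5, 9, 11 and 14. In the other clusters deposited as Macrophages it stood at 671 to 29101 CPM. Mki67 stood at 783 CPM in cluster 6, against 16.99 CPM in cluster 13. The mean of cluster 6 was 22031 UMIs per cell, against 1278 in cluster 5, and the part of depth in these correlations was not tested. Cluster 9 followed (0.906 and 0.909), then cluster 12, deposited as B cells (0.898 and 0.899). These are correlations across genes of pooled libraries that share free RNA, and genes are not independent replicates. Across the 20 clusters, the genes most like Tcrg-C2 in log2 CPM were Scin (r = 0.932), Myl10 (0.909), Gm4632 (0.892), Tmem121 (0.881) and H19 (0.859). All of these, and Tcrg-C2, were among the 25 genes chosen by their ratio in cluster 13. The correlations include cluster 13, so a high r follows in part from that choice and is a description only. For Ptcra they were led by Desi1 (0.910) and Smo (0.907), and for Dntt by Xrcc6 (0.942) and Arpp21 (0.927).

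Markers of other cell types were summed in cluster 13, and their part in the results was not tested. The macrophage, neutrophil and erythroid sums lay below the range of clusters 5, 9, 11 and 14, and the monocyte and thymic epithelial sums above it. The 10 B cell markers summed to 753 CPM in cluster 13, against 560 to 850 CPM in clusters 5, 9, 11 and 14 and 784 CPM in the NK cells cluster 3. Of 10 NK cell markers, 4 were at 0 (Klrb1c, Klrk1, Eomes and Klra7) and the sum was 366 CPM, against 19.04 to 1190 CPM, of which Gzma gave 363 CPM. The 10 macrophage markers summed to 120 CPM, against 179 to 600 CPM, with Adgre1, Mrc1 and Mertk at 0. The 8 neutrophil markers summed to 70.2 CPM, against 77.99 to 505 CPM, with Ltf and Ly6g at 0. The 8 mast cell markers summed to 169 CPM, against 8.01 to 180 CPM, of which Cpa3 gave 145 CPM, with Tpsb2, Mcpt8, Prss34 and Ms4a2 at 0. Monocyte markers summed to 1520 CPM, against 99.4 to 838 CPM, of which Plac8 gave 1507 CPM. Plasmacytoid dendritic cell markers summed to 2713 CPM, against 291 to 4309 CPM, of which Ly6d, also known from early lymphoid cells, gave 1911 CPM. Group 2 innate lymphoid markers summed to 106 CPM, against 25.6 to 3146 CPM, with Il1rl1 at 1 UMI. The 7 thymic epithelial markers summed to 151 CPM, the highest of 20 clusters, against 32.9 to 84.8 CPM, of which Epcam gave 115 CPM and the chemokine gene Ccl25 33.5 CPM, with Foxn1, Psmb11 and Krt5 at 0. The 7 erythroid and platelet markers summed to 18.4 CPM, against 36.9 to 152 CPM.

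By cell number, cluster 13 made up 3.67% of the nt-LNA library (3.16 to 4.24) and 2.41% of the saline library (1.87 to 3.05), a ratio of 1.53 (1.15 to 2.06). The direction depended on the denominator. Within clusters 5, 9, 11, 13 and 14, cluster 13 made up 13.6% of nt-LNA cells (11.8 to 15.6) and 15.03% of saline cells (11.8 to 18.7), a ratio of 0.905 (0.679 to 1.22). Of all cells, the share in the nt-LNA library over that in the saline library was 2.29 (1.87 to 2.81) for cluster 5, 1.11 (0.890 to 1.40) for cluster 9, 1.43 (1.12 to 1.84) for cluster 11 and 2.53 (1.76 to 3.74) for cluster 14. With 1 library per treatment, differences between mice, dissection or sorting cannot be told apart from treatment, nor can more cells of a type from fewer cells of others.

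**Figure D5:**
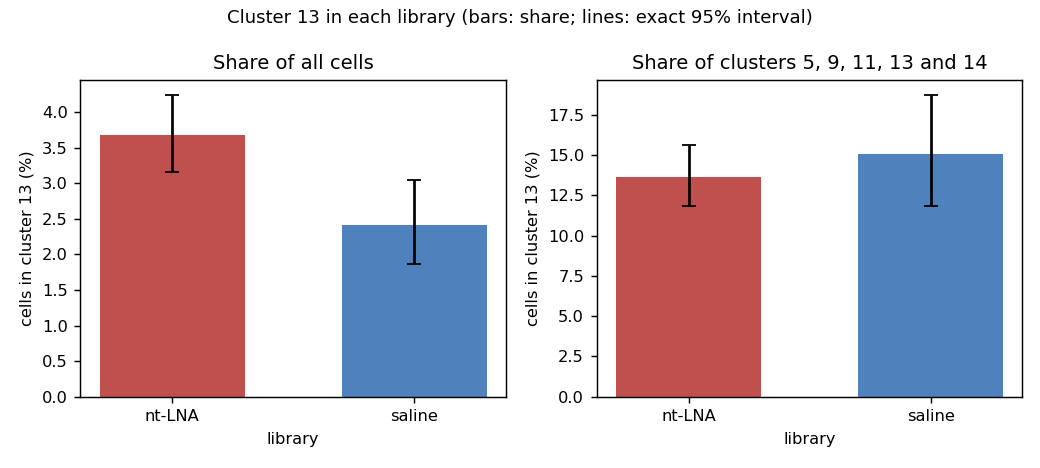
Percent of cells in cluster 13 in the nt-LNA and the saline library, of all cells (left) and of clusters 5, 9, 11, 13 and 14 (right), with exact 95% intervals as lines. The share was 3.67% against 2.41% of all cells, and 13.6% against 15.03% of the T cells clusters.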

How the data were processed

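Leukocytes of Apoe-/- mouse aorta were profiled by 10x 3' single-cell RNA sequencing, with 1 library per treatment. Per the submitters' processing notes, Cell Ranger 2.1.1, Seurat and the mm9 build were used; the labels state no cell filter, clustering setting or doublet removal. The authors deposited whole-number UMI counts per gene, summed over each of 20 clusters with both libraries pooled, a table of cells with their cluster, and a summary whose score for the cell type call is used only as deposited. The cell tallies equalled the summary (largest difference 0).

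CPM were computed from the deposited counts. Ratios set cluster 13 against the averaged CPM of 19 others, or of clusters 5, 9, 11 and 14, on log2 with a pseudocount of 0.5 CPM, which understates the change of low genes. Genes needed at least 20 counts over the clusters compared. Shares have exact Clopper-Pearson, ratios of shares exact conditional and CPM exact Poisson 95% intervals, for counting error only; reference clusters were taken as fixed. Against 0 counts in clusters 5, 9, 11 and 14, 3 counts were used as the floor. Cluster 13 needed 50 counts of a gene for it to be named as leading, 25 genes against the other clusters and 15 against clusters 5, 9, 11 and 14; the 15 lowest needed 50 counts over those 4. For each gene list and each comparison the 2 members farthest from 0 in log2 ratio and the 2 with most counts in cluster 13 could be named, as could every member of the receptor, CD3, recombination, stage and progenitor lists, Ptprc, Apoe, Xist and Malat1. Genes most like each marker were the 5 with the highest Pearson r. Other list members, and Cdk6, Igf2, Cdh1, Mpzl2, Prss57, Tifa and the D-type cyclin and Y-linked genes, were named after their values were seen. Some list members, though in the counts, are not reported here. The members and lists were chosen with earlier results of these data known. No doublet caller was run, since counts per cell are not used here. Python 3.11.15 with scipy 1.17.1, numpy 2.4.6 and pandas 2.3.3 did the calculations and matplotlib 3.10.9 the plots, and the calculations were checked on simulated counts.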

Additional observations from a re-analysis of the deposited data

How the results depend on the processing

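No paired analysis was possible because each treatment has 1 library and no test was made. The ratio of shares, 1.53 over all cells, turned to 0.905 among clusters 5, 9, 11, 13 and 14, and to 0.926 (0.695 to 1.248) when cluster 16, also deposited as T cells, joined them, a setting chosen after seeing the data. It stayed above 1 without clusters 2, 5, 14 and 16 (1.79), without clusters 7 and 10 (1.37) and without barcodes found in both libraries (1.53). Against the other clusters, 3276 genes were lower, and 2132 with a pseudocount of 2 CPM. Against clusters 5, 9, 11 and 14, 757 genes were higher and 1953 lower. These became 1339 and 3061 without a filter, 397 and 1047 with at least 100 counts, where fewer genes were tested, and 1260 lower genes with clusters 9 and 11 as reference. Lists with a median above 0 numbered 3, but 7 with clusters 9 and 11, 6 with totals that leave out mitochondrial and ribosomal protein genes, and 7 with clusters 5, 9 and 14, a setting chosen after seeing the data. Leaving out mitochondrial and ribosomal protein genes moved the median over all genes to -0.02, against -0.21, and the higher share of called genes to 41.3%, against 27.9%; with clusters 9 and 11 it was 45.1%. The median of cell cycle genes turned to 0.69 with clusters 9 and 11. With clusters 5, 9 and 14, effector genes turned to 1.28, Ly6a to 0.86, Areg to 1.66, Hs3st1 to 0.45 and Tmem176a to 0.92. The cause of these turns was not tested, beyond the removal of cluster 11, which holds the highest values of Areg, Ly6a, Hs3st1 and Tmem176a among clusters 5, 9, 11 and 14. Depth limits the rarest transcripts: the exact interval for 0 UMIs in cluster 13 reaches 1.69 CPM.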

Other observations

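Several genes better known from epithelial cells were transcribed in cluster 13, a group put together after the values were seen. Epcam, an adhesion molecule gene, reached 115 CPM (101 to 130) in cluster 13, the highest of 20 clusters, against 24.1, 4.81, 29.02 and 28.2 CPM in clusters 5, 9, 11 and 14. Cdh1, for E-cadherin, stood at 19.7 CPM, against 1.27, 1.603, 0.453 and 5.13 CPM, and reached 62.6 CPM in cluster 18. Mpzl2, an adhesion gene, stood at 71.6 CPM, against 35.5, 17.6, 0.453 and 48.8 CPM. The keratin gene Krt8 had 5 UMIs in cluster 13, and the thymic epithelial genes Foxn1, Psmb11 and Krt5 had 0 in every cluster.

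The D-type cyclin genes, whose products partner Cdk6, differed among themselves. Ccnd2 stood at 271 CPM in cluster 13, against 31.7, 18.4, 372 and 34.7 CPM in clusters 5, 9, 11 and 14. Ccnd3 stood at 195 CPM, against 829, 808, 173 and 480 CPM, and Ccnd1 had 7 UMIs (3.21 CPM). Prss57, a serine protease gene, stood at 110 CPM, against 16.5, 4.81, 0 and 71.9 CPM, and Tifa, an adaptor gene of NF-kappaB signalling, at 56.5 CPM, against 2.53, 3.21, 3.17 and 3.85 CPM.

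H19 was found in cluster 13 while Igf2, its imprinted neighbour, had 0 UMIs in all 20 clusters. Xist, expressed from the inactive X chromosome, had 2977 CPM in cluster 13 and 1942 CPM on average elsewhere, and the Y-linked genes Ddx3y and Eif2s3y had 0 UMIs in every cluster. Malat1, a nuclear RNA, had 25689 CPM in cluster 13 and 40845 CPM on average elsewhere. Ptprc, the gene of the sorted CD45 protein, had 540 CPM in cluster 13 and 918 CPM on average elsewhere. Apoe, disrupted in these mice, had 2 UMIs in cluster 13, and a 3' tag outside the disrupted stretch checks no genotype.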
